A study of Mus musculus with 45 samples.

Results

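The genes described here are 40 genes of the cell cycle that were listed by symbol, 22 that act in mitosis or in G2 and 18 that act at the passage from G1 into S phase. Each was read from the probe set with its symbol that had the highest mean over all arrays. Of the 40 genes, 39 had such a probe set, out of 17097 genes in the whole table: 21 of the 22 mitotic genes and 18 of the 18 G1/S genes. Ccnb1, the main mitotic cyclin B, had no probe set under its symbol and is given no value.

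Total RNA of mouse brain from a glioblastoma model was hybridised to 45 Affymetrix 3' arrays, and the deposited values are log2 signals. All samples came from the CD-1 nude strain, a mouse without a working thymus, and all carried a p53-null background. The series set out to express wild-type PDGFRA, or 6 mutants that alter different regions of this receptor tyrosine kinase, from retroviral constructs in primary mouse astrocyte cultures without p53. The groups were Pdgfra V544ins and Pdgfra E10 del.v2 with 9 arrays each, Pdgfra C450 ins, Pdgfra D842V and Pdgfra E10 del with 5 each, Pdgfra E7 del with 3, Pdgfra WT with 1, and EGFRvIII with 8. EGFRvIII is a truncated, constitutively active epidermal growth factor receptor and served here as the other driver. The labels do not say how E10 del.v2 differs from E10 del, and the age of the animals is not given in the sources used here. They also do not say that replicates came from separate animals, so p-values measure only the spread between these samples. The group with the unmutated receptor had 1 array and entered no test.

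A cell that leaves G1 makes cyclin E and activates the E2F transcription factors, which switch on the genes that license and copy DNA: the MCM helicase, its loaders Cdc6 and Cdt1, the clamp Pcna, and the enzymes that supply deoxynucleotides. Later, Foxm1 and the MuvB complex with B-Myb raise the mitotic genes, among them the kinases Cdk1, Plk1 and the Aurora kinases, the checkpoint kinases Bub1 and Ttk, the spindle motors of the kinesin family and the anaphase activator Cdc20. Neurons have left the cycle and express Rbfox3, the gene of the neuronal nuclear antigen NeuN, so brain tissue that surrounds a tumour brings Rbfox3 and little of either programme.

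Marker genes fixed for other cell types showed that the samples were mixtures. The mean of the neuron markers, of which 11 of 11 were measured, ran from 4.54 to 11.27 over the arrays, that of the oligodendrocyte lineage (4 of 5 measured) from 7.23 to 11.90, that of astrocytes (5 of 5) from 6.74 to 10.21, and that of microglia and macrophages (8 of 8) from 6.97 to 9.89. No measured lymphocyte marker exceeded the table median of 4.79 on any array. In such bulk samples, fewer cells of a type and less RNA per cell cannot be told apart. The numbers in the sample titles fall into 2 ranges, 1 to 30 and 41 to 64, which the labels do not explain. EGFRvIII, E7 del and WT lay wholly in the upper range and C450 ins, D842V and E10 del wholly in the lower, so range and genotype cannot be told apart for these groups. A sign of RNA integrity, the 3' minus the 5' signal of Actb, lay between 0.43 and 0.93 on 44 arrays and was 1.19 on E10 del.v2 replicate 2. Replicate numbers follow the order of deposition and pair nothing.

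Promoters of the members carry letters that these 2 programmes are known for, and 4 are shown because these genes had the widest range over the arrays among mitotic genes with a CHR match and among G1/S genes with an E2F match. The cell cycle genes homology region, CHR, was searched as TTTGAA or TTCGAA, the E2F site as TTTGGCGC, TTTCGCGC, TTTCCCGC or TTTGCCGC, and the box bound by NF-Y as CCAAT. Both strands of the 250 bases before each start were read, from RefSeq promoters of build GRCm38.p6. Capitals mark the CHR letters in Cdk1 and Mki67 and the E2F letters in Uhrf1 and Mcm7, where Mcm7 reads GCGGGAAA because its match lies on the opposite strand. The Mcm7 sequence also holds 1 CHR match, left in lower case. Each sequence runs 5′ to 3′ along the gene.
Cdk1 promoter, chr10:69352913-69353162, minus strand: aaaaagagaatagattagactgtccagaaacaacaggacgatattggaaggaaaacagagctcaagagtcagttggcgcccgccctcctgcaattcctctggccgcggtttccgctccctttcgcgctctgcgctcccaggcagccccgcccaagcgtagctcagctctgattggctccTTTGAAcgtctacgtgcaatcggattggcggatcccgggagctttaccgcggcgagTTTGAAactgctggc
Mki67 promoter, chr7:135716380-135716629, minus strand: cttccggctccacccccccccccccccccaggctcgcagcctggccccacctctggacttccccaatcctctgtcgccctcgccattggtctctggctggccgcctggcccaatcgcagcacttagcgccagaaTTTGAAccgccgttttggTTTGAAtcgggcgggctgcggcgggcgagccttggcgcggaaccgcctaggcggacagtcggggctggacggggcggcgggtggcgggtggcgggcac
Uhrf1 promoter, chr17:56304063-56304312, plus strand: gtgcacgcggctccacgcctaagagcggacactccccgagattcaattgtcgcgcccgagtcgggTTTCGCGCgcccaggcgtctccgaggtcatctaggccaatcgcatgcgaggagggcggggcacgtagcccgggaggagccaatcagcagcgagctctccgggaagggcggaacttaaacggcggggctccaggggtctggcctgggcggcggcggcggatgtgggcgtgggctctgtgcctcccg
Mcm7 promoter, chr5:138171884-138172133, minus strand: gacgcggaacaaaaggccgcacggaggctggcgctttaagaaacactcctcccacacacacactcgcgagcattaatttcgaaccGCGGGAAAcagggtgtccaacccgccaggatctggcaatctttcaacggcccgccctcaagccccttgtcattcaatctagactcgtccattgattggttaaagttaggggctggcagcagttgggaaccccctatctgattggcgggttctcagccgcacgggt

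The table held promoters for 32 of the 40 genes, 35 in all, since 3 genes had more than 1. CHR letters stood in 7 of 17 mitotic promoters (41.2%) and in 3 of 18 G1/S promoters (16.7%), against 17.1% of all 32851 promoters in the table. E2F letters stood in 1 of 17 mitotic promoters, that of Cdk1, where they are left in lower case, and in 5 of 18 G1/S promoters (27.8%), against 1.86% of all. CCAAT stood in 15 of 17 mitotic and 13 of 18 G1/S promoters, against 33.9% of all. CHR and E2F matches overlapped in 0 member promoters. These are matches of letters and show no binding.

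Mki67, which encodes the Ki-67 antigen of cycling cells, varied more within genotypes than between them. Its log2 signal was 6.88, 7.0, 5.60, 10.09 and 10.01 in the 5 E10 del arrays. It was 8.61, 9.23, 9.86, 10.68 and 10.84 in C450 ins, 8.30, 9.46, 9.95, 9.60 and 10.64 in D842V, and 9.11, 10.19 and 9.93 in E7 del. E10 del thus split into 3 low and 2 high arrays with no value between 7.0 and 10.01, while the other groups of this size formed a run. In the larger groups the lowest, median and highest values were 7.30, 9.64 and 10.66 in EGFRvIII, 4.72, 9.85 and 10.61 in E10 del.v2, and 7.94, 9.64 and 10.36 in V544ins. The WT array had 6.88. All 7 replicated groups overlapped in Mki67.

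Top2a, the topoisomerase that untangles DNA before mitosis, and Cdk1, the kinase that starts mitosis, placed the same arrays at the bottom. Top2a was 6.53, 6.81, 5.24, 9.92 and 9.93 in the E10 del arrays, 4.62 on E10 del.v2 replicate 2 and 6.86 on EGFRvIII replicate 7. Cdk1 was 6.64, 7.0, 5.98, 9.94 and 9.65 in E10 del, 4.36 on E10 del.v2 replicate 2 and 7.33 on EGFRvIII replicate 7. Over all arrays Cdk1 spanned 6.47 log2 units, the widest range of the 39 genes. The other 8 E10 del.v2 arrays had Cdk1 between 8.77 and 10.24.

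Among the G1/S genes, Mcm2 and Mcm6, subunits of the replicative helicase, followed the same arrays. Mcm2 was 4.58, 5.38, 5.02, 7.60 and 7.48 in E10 del, against 6.80, 7.05, 7.67, 8.56 and 8.46 in C450 ins. In D842V it was 6.57, 7.55, 7.83, 7.36 and 8.44, and in E7 del 6.55, 8.46 and 8.43. The 3 low E10 del arrays lay below every C450 ins, D842V and E7 del array in Mcm2. Mcm6 was 7.0, 7.07, 6.27, 8.74 and 8.75 in E10 del and 5.66 on E10 del.v2 replicate 2. Pcna, the sliding clamp of the DNA polymerases, is also used in DNA repair and moved over a narrower range, from 9.93 on E10 del.v2 replicate 2 to 12.05 in the same group. In E10 del it was 10.16, 10.50, 10.23, 11.66 and 11.77.

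Ccne1, the cyclin that drives entry into S phase, and E2f1, a transcription factor of that step, did not share this pattern. Ccne1 was 5.86, 5.98, 5.09, 5.46 and 5.45 in E10 del, so replicates 1 and 2, low for the other genes, were the highest of the group here, while replicate 3 was lowest as for the others. It was 6.29 on E10 del.v2 replicate 2, the highest of that group. E2f1 was 5.10, 5.06, 4.62, 4.77 and 4.74 in E10 del. Its signal was low, with a mean of 5.10 over the 45 arrays, and exceeded the table median of 4.79 on 34 arrays only. Small signals are compressed, which limits what the narrow range of E2f1 can show. In EGFRvIII, E2f1 was 5.98, 6.30 and 5.59 on replicates 4, 5 and 6 and between 4.44 and 5.17 on the other 5, so these 3 arrays stood above the rest of their group. Mki67 on the same 3 arrays was 9.66, 9.45 and 9.01, inside the range of their group, and Cdk1 was 10.45, 10.83 and 9.86. The mean of the oligodendrocyte lineage markers was 8.31, 7.23 and 9.40 on them and 10.28 to 11.53 on the other 5 EGFRvIII arrays. Its part in the E2f1 values was not tested.

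The range over the arrays had a median of 4.69 log2 units over the 39 genes, from 1.90 for E2f1 to 6.47 for Cdk1. Between 71.1% and 84.9% of the variance of each gene lay within genotypes, with a median of 75.8%. With 8 groups over 45 arrays, most variance lies within groups even where genotype has no effect. These shares, that of Mki67 among them, therefore do not measure how far genotype matters. Correlation with the mean of the other members had a median r of 0.97 over the 45 arrays and was lowest for E2f1 at 0.34 and Ccne1 at 0.41. The arrays share genotype, title range and brain content, so these values describe how far the genes move together. E10 del had the lowest group mean for 38 of the 39 genes, and Ccne1 had its lowest in E7 del. The highest group mean was in D842V for 14 genes, in C450 ins for 10, in E7 del for 9 and in EGFRvIII for 6.

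**Figure D1:**
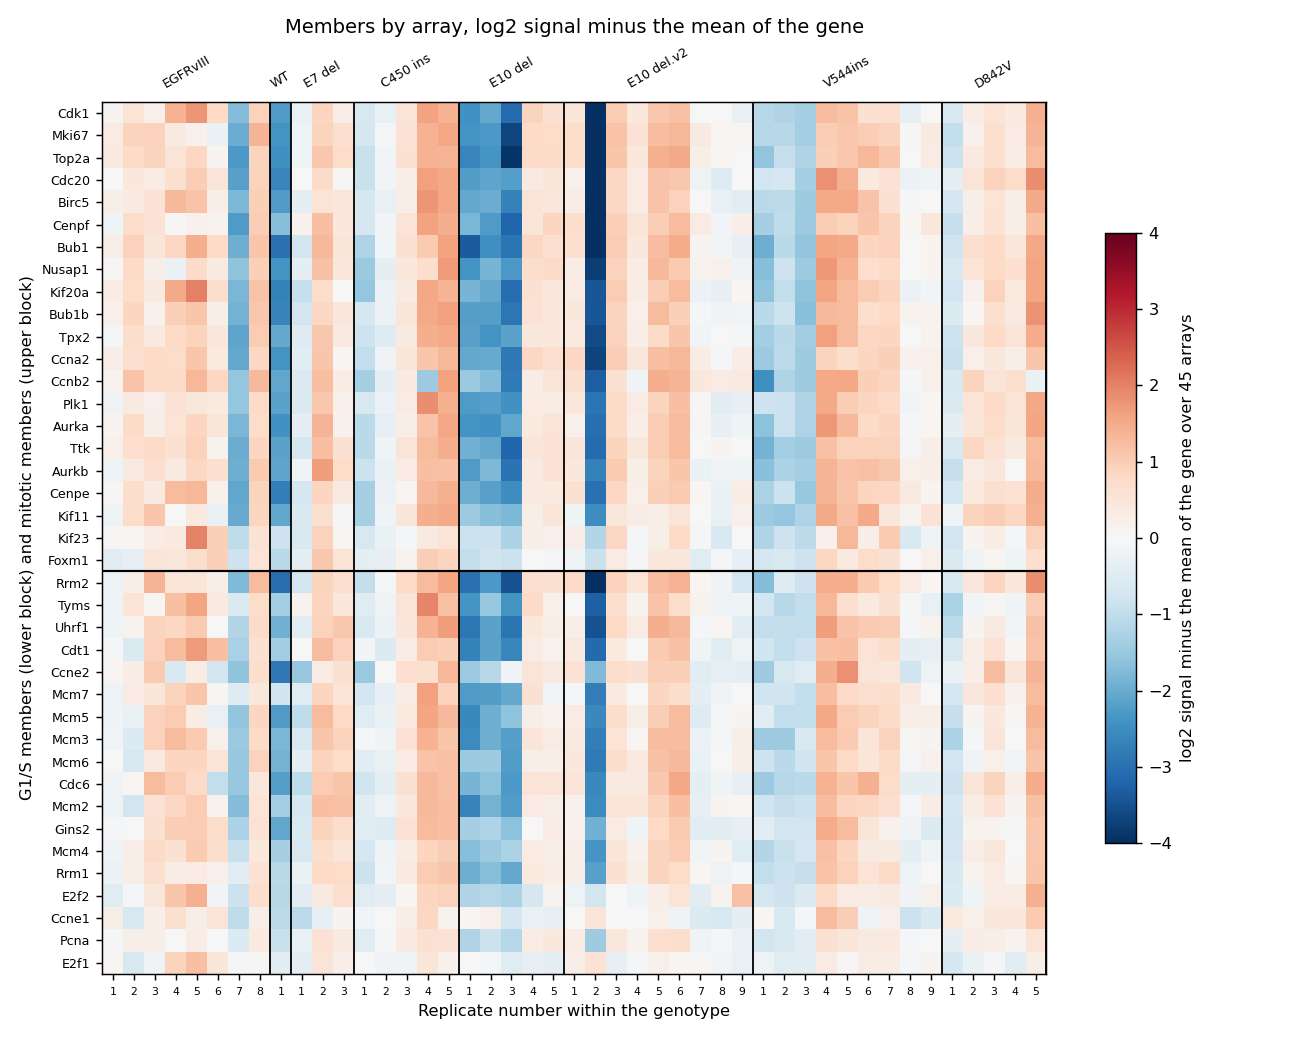
Each column is an array, grouped by genotype and numbered by replicate, and each row a gene, mitotic above and G1/S below the line; the colour is the log2 signal minus the mean of that gene over the 45 arrays, and values under -4 are drawn at -4. E10 del replicates 1 to 3, E10 del.v2 replicate 2, EGFRvIII replicate 7 and the WT array are blue across most rows, while the rows of Ccne1 and E2f1 stay pale.

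The mean log2 signal of the 21 mitotic genes summarises them on each array, and in bulk samples it does not measure the rate of division alone. It was 5.25, 5.31, 4.69, 7.80 and 7.81 in E10 del, 6.35, 7.07, 7.67, 8.49 and 8.70 in C450 ins, and 6.62, 7.69, 7.93, 7.69 and 8.62 in D842V. In E7 del it was 6.86, 8.33 and 7.65, and the WT array had 5.08. The lowest, median and highest were 5.47, 7.86 and 8.31 in EGFRvIII, 3.93, 7.58 and 8.42 in E10 del.v2, and 5.91, 7.45 and 8.61 in V544ins. Group means with SD were 7.60 ± 0.91 in EGFRvIII (n = 8), 7.61 ± 0.73 in E7 del (n = 3), 7.66 ± 0.98 in C450 ins (n = 5), 7.71 ± 0.72 in D842V (n = 5), 7.36 ± 1.08 in V544ins (n = 9), 7.32 ± 1.35 in E10 del.v2 (n = 9) and 6.17 ± 1.51 in E10 del (n = 5). In the order of these means, each neighbour differed from the next by less than their SDs, and E10 del overlapped every other replicated group.

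The mean of the 18 G1/S genes ordered the arrays nearly alike. Its group means were 6.37 ± 1.07 in E10 del (n = 5), 7.31 ± 0.92 in E10 del.v2 (n = 9), 7.37 ± 0.79 in V544ins (n = 9), 7.52 ± 0.66 in EGFRvIII (n = 8), 7.54 ± 0.66 in D842V (n = 5), 7.60 ± 0.76 in E7 del (n = 3) and 7.67 ± 0.75 in C450 ins (n = 5), with 5.71 on the WT array. Over the 45 arrays the mitotic and G1/S means had a Pearson r of 0.97 and a Spearman rho of 0.96, and r was 0.98 within the lower and 0.96 within the upper title range. Without the 2 arrays farthest from the median mitotic mean, r was 0.97.

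**Figure D2:**
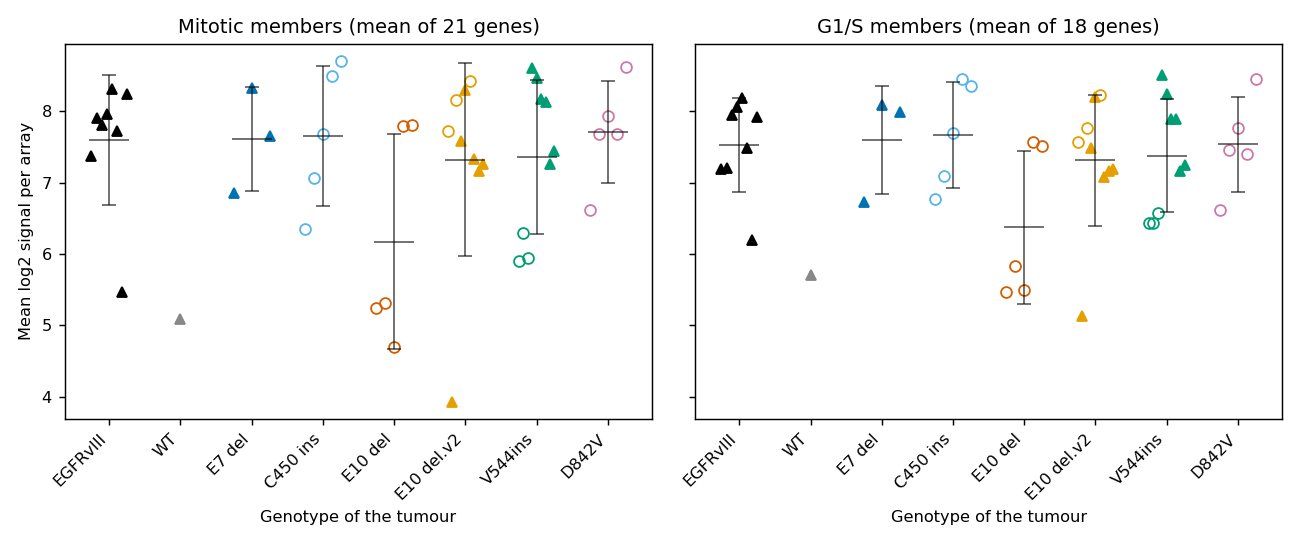
The vertical axes give the mean log2 signal per array of the 21 mitotic genes (left) and the 18 G1/S genes (right) for each genotype; open circles are arrays with title numbers 1 to 30, filled triangles those with 41 to 64, horizontal lines group means and bars 1 SD. E10 del splits into 3 arrays near 5 and 2 near 7.8 on the left, and E10 del.v2 replicate 2 lies at 3.93, below all other arrays.

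The mitotic genes spread wider than the G1/S genes, so the difference between the 2 means, mitotic minus G1/S, shifted with the level. It was -1.19 on E10 del.v2 replicate 2, -0.22, -0.52 and -0.80 on E10 del replicates 1 to 3, -0.73 on EGFRvIII replicate 7 and -0.63 on WT. On E10 del replicates 4 and 5 it was 0.23 and 0.30. By group it was 0.17 ± 0.11 in D842V (n = 5), 0.07 ± 0.42 in EGFRvIII (n = 8), 0.01 ± 0.31 in E7 del (n = 3), 0.01 ± 0.47 in E10 del.v2 (n = 9), -0.01 ± 0.27 in C450 ins (n = 5), -0.02 ± 0.34 in V544ins (n = 9) and -0.20 ± 0.47 in E10 del (n = 5). The 7 replicated genotypes therefore overlapped in this difference. Over the 45 arrays the difference had an r of 0.85 with the mitotic mean, which enters it. It does not by itself measure the balance of the 2 phases. The highest value was 0.71 on EGFRvIII replicate 2, which had Mki67 at 10.19 but Mcm2 at 6.51. With the median of the members in place of their mean, D842V had 0.43, and with only the members kept for testing 0.37. The latter leaves out the mitotic gene Kif23, of low signal (mean 3.67), which raises the mitotic mean of every replicated group. The other groups are not given under these settings, so the values do not set D842V apart.

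Whether these genes stood at another level under a mutant PDGFRA than under the other driver was read from all 36 mutant arrays against the 8 of EGFRvIII. None of the 38 tested members passed limma's test at an adjusted p under 0.05 (0 also had an unadjusted p under 0.05), while 8.9% of the 11809 genes tested did, 5.35% lower and 3.55% higher in the mutants. Over all genes 3250 had an unadjusted p under 0.05. Kif23, a kinesin of cytokinesis, was left out because it exceeded the table median on 2 arrays only. The differences, mutants minus EGFRvIII, had a median of -0.24 and were below 0 for 36 of 38 members, against a median of -0.02 and 52.4% below 0 over all genes. The smallest p belonged to E2f1, with a difference of -0.26 ± 0.15 (adjusted p = 0.244), where EGFRvIII had 5.32 ± 0.60 (n = 8) and the 6 mutant groups had means of 4.86 to 5.24. Ccnb2, a mitotic cyclin, differed by -0.68 ± 0.47 and Kif20a, a kinesin of the central spindle, by -0.70 ± 0.48. Tyms, thymidylate synthase, differed by -0.51 ± 0.39 and Cdt1, which loads the MCM helicase, by -0.49 ± 0.40. Mki67 differed by -0.21 ± 0.51, Cdk1 by -0.53 ± 0.50 and Mcm2 by -0.02 ± 0.38. With Rbfox3 in the fit 13 of 38 differences were below 0 (median 0.11), and without E10 del replicates 1 to 3 and E10 del.v2 replicate 2, a choice made after seeing the data, 15 were (median 0.08). Of EGFRvIII arrays, leaving out replicates 4 to 6 gave a median of -0.02, and leaving out replicate 7 together with E10 del.v2 replicate 2 gave -0.43.

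Of 59 other cell cycle genes tested, 2 (3.39%) were lower in the PDGFRA mutants than in EGFRvIII and 0 were higher. Over all genes 5.35% were lower and 3.55% higher, so such calls were no more frequent in this list. The 2 genes were the G1 partners Cdk6, a kinase that phosphorylates the retinoblastoma protein, and Ccnd2, the cyclin D2 that activates it. The lowest, median and highest Cdk6 signals were 4.95, 6.01 and 8.54 in EGFRvIII (n = 8) and 4.24, 5.11 and 6.21 in the mutants (n = 36), with 5.77 on the WT array. Cdk6 was 8.44, 8.54 and 8.43 on EGFRvIII replicates 4, 5 and 6 and no more than 6.24 on the other 5, inside the range of the mutants but for that value. Its difference was -1.52 ± 0.29 (adjusted p = 0.00156, limma), and -0.45 ± 0.19 (adjusted p = 0.417) without these 3 arrays. Ccnd2 was 10.48, 11.21 and 12.55 in EGFRvIII and 7.75, 10.04 and 11.11 in the mutants at the lowest, median and highest array, with 11.79 on the WT array. EGFRvIII thus lay high for Ccnd2 as a group, and the ranges overlapped. Ccnd2 differed by -1.52 ± 0.31 (adjusted p = 0.00317), and by -1.57 ± 0.39 (adjusted p = 0.0568) without the same 3 arrays. Within titles 41 to 64 neither passed: the difference was -1.44 ± 0.42 for Cdk6 (adjusted p = 0.101) and -1.35 ± 0.37 for Ccnd2 (adjusted p = 0.0863).

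Among the 6 mutants, which alter different regions of the receptor, 0 of 38 members differed by limma's moderated F test (0 at an unadjusted p under 0.05), while 0.576% of all genes did. Over all 11809 genes 2148 had an unadjusted p under 0.05. Cdt1 had the smallest p: its highest and lowest group means were 2.12 log2 units apart (adjusted p = 0.281). For Mcm7, Mcm2, the mitotic kinase gene Plk1 and Uhrf1, a factor of maintenance DNA methylation, the groups spanned 1.59, 1.80, 1.81 and 1.99. E10 del was the lowest group in each of these 5 genes.

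E10 del against the mean of the other 5 mutants gave the member differences of largest median among the 6 mutant contrasts. All 38 lay below 0 with a median of -1.41, 34 had an unadjusted p under 0.05, and 0 passed after adjustment. Over all 11809 genes 3269 had an unadjusted p under 0.05 and 0.796% passed. Cdt1 was 5.78, 6.34, 5.88, 8.80 and 8.61 in the 5 E10 del arrays and differed by -1.65 ± 0.49 (adjusted p = 0.0653). Uhrf1 was 4.56, 5.32, 4.55, 7.88 and 7.74 and differed by -1.74 ± 0.54 (adjusted p = 0.0703). Plk1 was 4.35, 4.39, 4.19, 6.93 and 6.90 and differed by -1.55 ± 0.49 (adjusted p = 0.0723). All 3 genes showed the split of this group into replicates 1 to 3 and replicates 4 and 5. Mcm7 differed by -1.42 ± 0.43 and Mcm2 by -1.55 ± 0.47 (adjusted p = 0.0667 for each), Mki67 by -1.67 ± 0.63 (adjusted p = 0.106) and Ccne1 by -0.24 ± 0.25 (adjusted p = 0.506). Of the other 59 cell cycle genes 1 (1.69%) was called, against 0.796% of all genes. That gene, Pold1, the catalytic subunit of DNA polymerase delta, was lower in E10 del. It was 4.30, 3.51, 3.90, 5.70 and 5.60 in E10 del and differed by -1.23 ± 0.30 (adjusted p = 0.0434).

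Single arrays decided these calls. The count of members called was 24 without E10 del.v2 replicate 2, 27 without E10 del replicate 4, 25 without E10 del replicate 5 and 3 without D842V replicate 1, V544ins replicate 2 or E7 del replicate 1. It stayed at 0 on leaving out any other array. These counts are given without the share of all genes that passed in the same fits. They therefore cannot set the members apart from other genes. On E10 del replicates 1 to 3 Rbfox3 was 11.59, 11.66 and 12.02, against 9.66 and 9.73 on replicates 4 and 5. The Actb 3' minus 5' signal was 0.70, 0.93 and 0.91 against 0.56 and 0.60. With Rbfox3 in the fit the median difference was -0.70 and 7 members had an unadjusted p under 0.05. Without E10 del replicates 1 to 3 and E10 del.v2 replicate 2 the median was 0.09 and Pold1 differed by -0.22 ± 0.37, short of the threshold. Pold1 also missed the threshold with Rbfox3 in the fit (-0.87 ± 0.27, adjusted p = 0.354), with the title range as a block (adjusted p = 0.531) and with the Actb signal (adjusted p = 0.123), and on leaving out single arrays its adjusted p reached 0.321.

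Against the other 5 mutants, D842V had 0 of 38 members past limma's threshold and 1 at an unadjusted p under 0.05. Of all 11809 genes 0.584% passed and 1382 had an unadjusted p under 0.05. The 1 member was Ccne1, at 6.15, 5.96, 6.18, 6.18 and 6.81 in D842V, with a difference of 0.58 ± 0.25 (adjusted p = 0.316). Kif11, the motor that separates the spindle poles, differed by 0.88 ± 0.49, Cdc20 by 0.81 ± 0.56, the cyclin gene Ccne2 by 0.65 ± 0.45 and E2f1 by -0.24 ± 0.18. E7 del had 0 members called and 0 at an unadjusted p under 0.05. Of all genes 0.356% passed (0.119% higher and 0.237% lower) and 2002 had an unadjusted p under 0.05. In E7 del, Ccne1 differed by -0.51 ± 0.30, Cdt1 by 0.90 ± 0.61, Foxm1 by 0.48 ± 0.34, Aurkb by 0.84 ± 0.66 and Rrm1 by 0.51 ± 0.48. C450 ins, V544ins and E10 del.v2 had 0 members called and 0 at an unadjusted p under 0.05, and 0% of all genes passed in each. Of all genes 432, 524 and 710, in that order, had an unadjusted p under 0.05. The median member difference was 0.40 in D842V, 0.38 in E7 del, 0.46 in C450 ins, 0.07 in V544ins and 0.02 in E10 del.v2. Within titles 1 to 30 it was -1.20 in V544ins and 1.12 in E10 del.v2, and within titles 41 to 64 it was 0.68 and -0.82. Both groups thus changed sign, but the mutants they were set against also changed. C450 ins, D842V and E10 del have arrays only in the lower range, and E7 del only in the upper. With Rbfox3 in the fit of both ranges the median member difference was -0.37 in E7 del and -0.07 in V544ins. In C450 ins the smallest p belonged to Tyms (0.76 ± 0.48), Mcm3 (0.67 ± 0.50), Plk1 (0.61 ± 0.49), Gins2 (0.48 ± 0.39) and Uhrf1 (0.66 ± 0.54). These contrasts share their arrays, since each group also stands in the mean that the others are set against.

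Most members passed the test for a relation to neuron content. Rbfox3 ran from 3.41 on V544ins replicate 5 to 12.31 on E10 del.v2 replicate 2. Its group means were 6.45 ± 3.19 in E7 del (n = 3), 7.59 ± 2.32 in EGFRvIII (n = 8), 8.44 ± 2.81 in V544ins (n = 9), 8.47 ± 2.80 in C450 ins (n = 5), 9.20 ± 2.76 in D842V (n = 5), 9.89 ± 1.51 in E10 del.v2 (n = 9) and 10.93 ± 1.14 in E10 del (n = 5). In C450 ins the 5 arrays had Rbfox3 at 11.74, 9.90, 9.63, 5.32 and 5.75 and, in the same order, mitotic means of 6.35, 7.07, 7.67, 8.49 and 8.70. The D842V arrays ran from Rbfox3 at 11.20 with a mitotic mean of 6.62 to Rbfox3 at 4.34 with 8.62. Both groups therefore had their lowest mitotic mean where Rbfox3 was highest.

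Within genotypes, the slope on Rbfox3 was below 0 for all 38 members and passed for 36 (limma, adjusted p under 0.05): 20 of 20 mitotic and 16 of 18 G1/S genes fell as Rbfox3 rose. Of all genes 61.9% passed in either direction and 37.9% fell. The median slope was -0.27 log2 units per log2 unit of Rbfox3, -0.29 for mitotic and -0.24 for G1/S genes, against -0.03 over all genes. The mitotic genes also had the larger SD over the arrays, with a median of 1.24 against 0.99 for G1/S genes. The median r with Rbfox3 within genotypes was alike, -0.59 for mitotic and -0.60 for G1/S genes. The members rise and fall together across arrays, so their count is not that of independent genes.

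E2f2, an E2F factor of the G1/S step, had the smallest p with a slope of -0.19 ± 0.03 (adjusted p = 2.99e-06), followed by Rrm1, the large subunit of ribonucleotide reductase, at -0.23 ± 0.04 (adjusted p = 1.25e-05) and Foxm1 at -0.16 ± 0.03 (adjusted p = 1.72e-05). Of the helicase genes, Mcm7 had -0.25 ± 0.05, Mcm5 -0.26 ± 0.05, Mcm4 -0.21 ± 0.04 and Mcm3 -0.27 ± 0.06, and Gins2, of the complex that activates the helicase, had -0.21 ± 0.04. Of the mitotic genes, the kinesin Kif11 had -0.27 ± 0.05, the spindle protein gene Nusap1 -0.31 ± 0.07, the kinase gene Aurkb -0.29 ± 0.06 and the spindle checkpoint gene Bub1b -0.30 ± 0.06. The slope was steepest for the checkpoint kinase gene Bub1 at -0.33 ± 0.08. Mki67 had -0.29 ± 0.08 (adjusted p = 0.00144) and Pcna -0.13 ± 0.03 (adjusted p = 0.000328). The genes that did not pass were E2f1 (-0.05 ± 0.03, adjusted p = 0.0637) and Ccne1 (-0.07 ± 0.03, adjusted p = 0.0741).

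**Figure D3:**
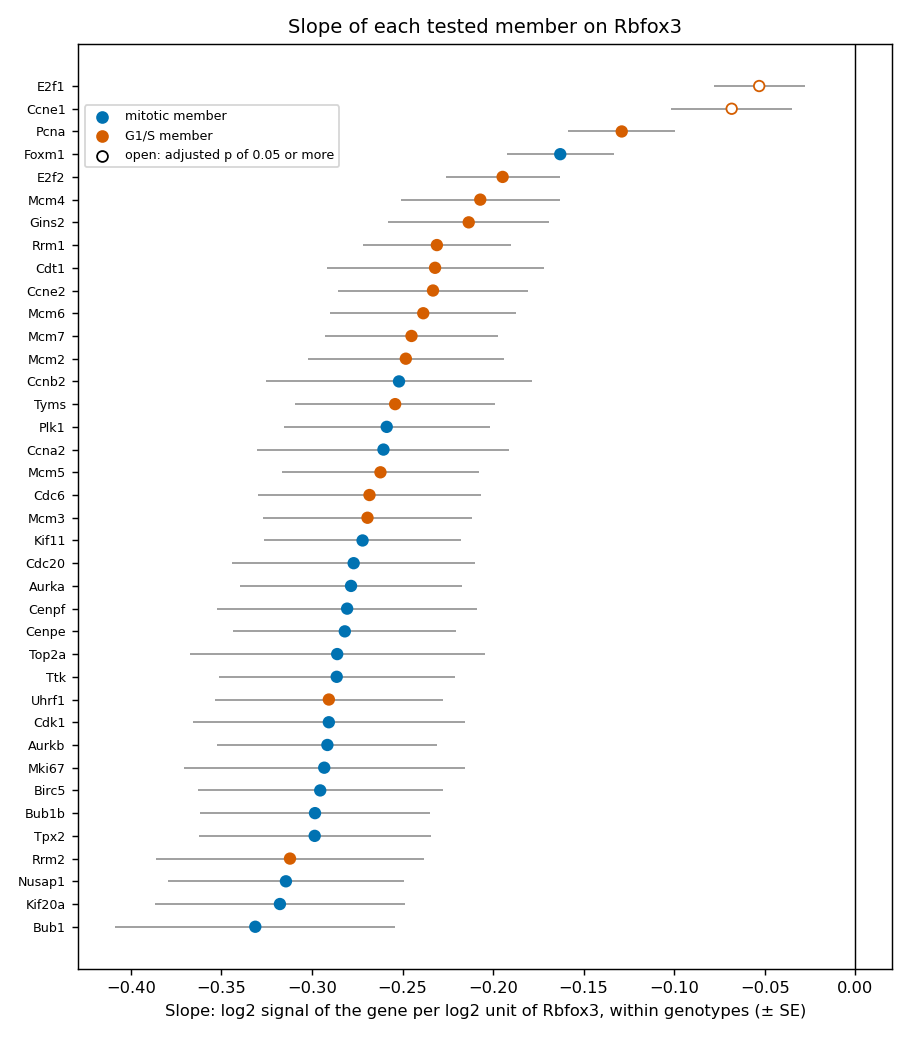
The horizontal axis gives the slope of each tested member on Rbfox3 within genotypes, in log2 signal per log2 unit of Rbfox3, with bars of 1 SE; blue marks mitotic and orange G1/S genes, and open points did not pass. Slopes run from -0.33 for Bub1 to -0.05 for E2f1, and most G1/S genes lie nearer to 0 than most mitotic genes.

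Other cell cycle genes moved alike: 54 of 59 (91.5%) fell as Rbfox3 rose and 0 passed upward, against 37.9% and 24% of all genes. Cdk2, the kinase of cyclin E, had a slope of -0.25 ± 0.04 (adjusted p = 6.99e-07), Bub3 of the spindle checkpoint -0.11 ± 0.02, the checkpoint kinase gene Chek2 -0.19 ± 0.03 and the cyclin D3 gene Ccnd3 -0.25 ± 0.04. Those that did not pass were Ccnd2 at 0.06 ± 0.05, Cdk6 at -0.05 ± 0.05, Fzr1 at -0.02 ± 0.02, Rb1 at -0.02 ± 0.02 and Wee1, whose adjusted p was 0.994. Ccnd2 and Cdk6, which differed between EGFRvIII and the mutants, were thus among the 5 without a call on Rbfox3.

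The relation was not of equal size everywhere. Rbfox3 and the mitotic mean had a Pearson r of -0.54 over the 45 arrays, -0.74 within titles 1 to 30 (n = 21) and -0.39 within titles 41 to 64 (n = 24). Within groups r was -0.92 in V544ins (n = 9), -0.43 in E10 del.v2 (n = 9) and -0.03 in EGFRvIII (n = 8). In V544ins the arrays of the lower and the upper title range did not overlap in Rbfox3 or in the mitotic mean. Its r therefore cannot be told apart from a difference between the title ranges. The value in E10 del.v2 rests on replicate 2: Spearman's rho was 0.12 over the 9 arrays, and r was 0.49 over the other 8, so no fall with Rbfox3 was seen among those. Over all arrays without the 2 arrays farthest from the median Rbfox3, r was -0.52. Within titles 1 to 30 alone 37 of 38 member slopes passed, and within titles 41 to 64 alone 0 passed (limma, 12 at an unadjusted p under 0.05, median -0.17). Leaving EGFRvIII replicate 7 out of the upper range gave 4. In the 36 mutant arrays 38 of 38 passed with a median of -0.33. In the 8 EGFRvIII arrays 0 passed, with a median of -0.02, and -0.10 without replicate 7. These subset counts are given without the share of all genes that passed in each subset. In the fit of all 45 arrays 61.9% of all genes passed in either direction and 37.9% fell, while 36 of 38 members fell. Without such shares, the subset counts cannot show whether the members differed from other genes there. The difference of the slopes, mutants minus EGFRvIII, had a median of -0.31 but passed for 0 of 38 members (21 at an unadjusted p under 0.05, lowest adjusted p = 0.883, limma), and 0% of all genes passed. So a difference between the drivers was not shown. Of all 11808 genes 648 had an unadjusted p under 0.05, and the members are not independent of each other. For Ttk, a checkpoint kinase gene, the slope was -0.36 in the mutants and 0.03 in EGFRvIII.

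A pair of arrays were low in cell cycle genes without being high in Rbfox3. EGFRvIII replicate 7 had a mitotic mean of 5.47 with Rbfox3 at 6.19, and the WT array 5.08 with 6.76. Their oligodendrocyte lineage marker means were 11.53 and 11.44. Over the 45 arrays the lineage marker mean and the mitotic mean had an r of 0.46 and a rho of 0.27, with an r of 0.89 within titles 1 to 30 (n = 21), 0.15 within titles 41 to 64 (n = 24), 0.61 in V544ins (n = 9) and -0.42 in EGFRvIII (n = 8), so these 2 arrays did not follow the relation of the whole series. In E10 del.v2 r was 0.86 (n = 9), and -0.48 without replicate 2. The Actb 3' minus 5' signal also moved with the mitotic mean, with an r of -0.71 (n = 45), where Rbfox3 had -0.54. The r of the Actb signal was -0.64 within titles 1 to 30 (n = 21) and -0.80 within titles 41 to 64 (n = 24). By group it was -0.75 in EGFRvIII (n = 8), -0.84 in V544ins (n = 9) and -0.95 in E10 del.v2 (n = 9, rho -0.82). The part of RNA integrity in the mitotic mean was not tested. With that signal as a further term, 36 of 38 slopes on Rbfox3 still passed, with a median of -0.20.

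**Figure D4:**
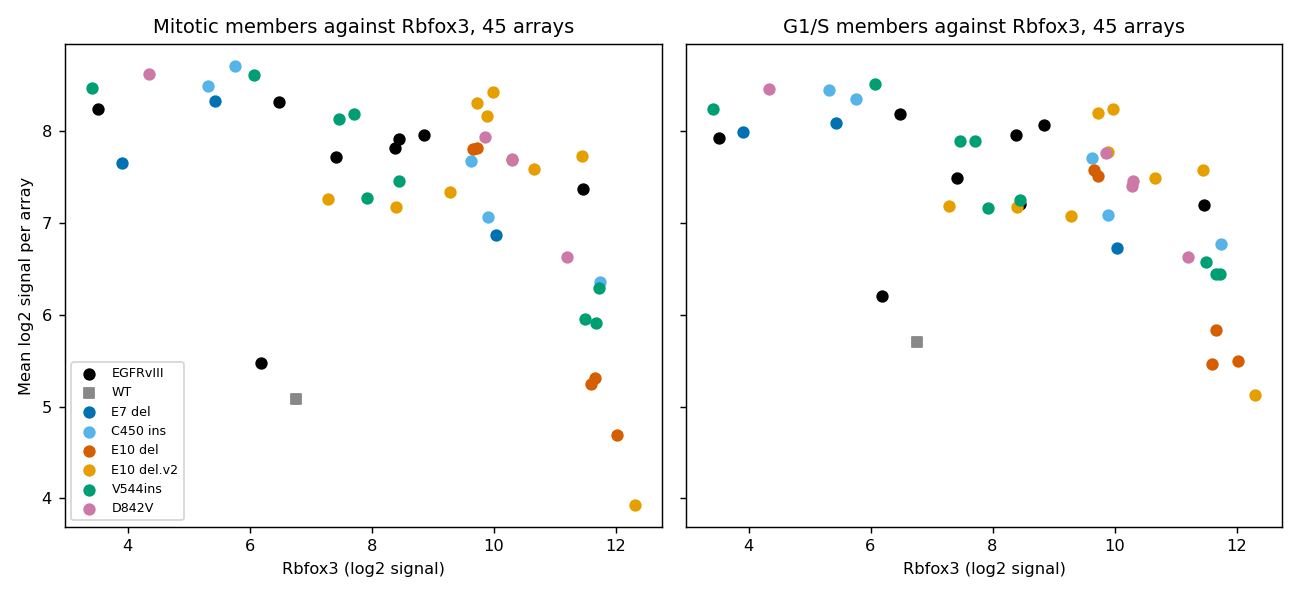
Each point is an array, with the log2 signal of Rbfox3 on the horizontal axis and the mean log2 signal of the mitotic (left) or G1/S genes (right) on the vertical axis, coloured by genotype. The lowest scores lie where Rbfox3 exceeds 11, and EGFRvIII replicate 7 and the WT array lie low at Rbfox3 values of 6.19 and 6.76.

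The 2 groups with arrays in both title ranges differed in how the ranges compared. In V544ins the mitotic mean was 6.05 ± 0.21 on the 3 arrays of the lower range and 8.01 ± 0.54 on the 6 of the upper, and the ranges did not overlap. In E10 del.v2 it was 8.10 ± 0.35 (n = 3) and 6.93 ± 1.52 (n = 6), a difference of -1.17, upper minus lower. Without replicate 2 the upper arrays had 7.53 ± 0.46 (n = 5) and the difference was -0.57. Mki67 was 8.16, 8.16 and 7.94 on the lower V544ins arrays and between 9.32 and 10.36 on the upper ones. It was 10.01, 10.43 and 10.61 on the lower E10 del.v2 arrays and 4.72 to 10.53 on the upper ones, so the ranges overlapped.

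Rbfox3 was 11.67, 11.73 and 11.50 on the lower V544ins arrays and 3.41 to 8.44 on the upper. It was 11.45, 9.90 and 9.98 on the lower E10 del.v2 arrays and 7.28 to 12.31 on the upper. Its mean was thus higher in the lower range in both groups, 11.63 against 6.84 in V544ins and 10.44 against 9.61 in E10 del.v2, with overlap only in E10 del.v2. Averaged over both groups, upper minus lower, 0 of 38 members passed (limma, 0 at an unadjusted p under 0.05) with a median of 0.33, while 1.02% of all genes passed, 0.135% higher and 0.889% lower. Over all 11809 genes 2663 had an unadjusted p under 0.05. Kif11 differed by 0.85 ± 0.43 (adjusted p = 0.233), E2f1 by 0.30 ± 0.18, E2f2 by 0.46 ± 0.30, Ccnb2 by 0.75 ± 0.52 and Foxm1 by 0.36 ± 0.25. With Rbfox3 in the fit 35 of 38 differences were below 0 (median -0.37).

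The range effect in V544ins minus that in E10 del.v2, a comparison added after seeing the data, had a median of 2.91 over the members. It passed for 0 of 38, and 0% of all genes passed. An unadjusted p under 0.05 was reached by 35 of 38 members and by 2793 of 11809 genes. The smallest p belonged to Aurkb (3.51 ± 0.95, adjusted p = 0.16), Ccnb2 (3.55 ± 1.05), Kif11 (2.89 ± 0.86), Ttk (3.39 ± 1.01) and Pcna (1.54 ± 0.46). With Rbfox3 in the fit the median was 1.87, and with the Actb 3' minus 5' signal 1.27.

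**Figure D5:**
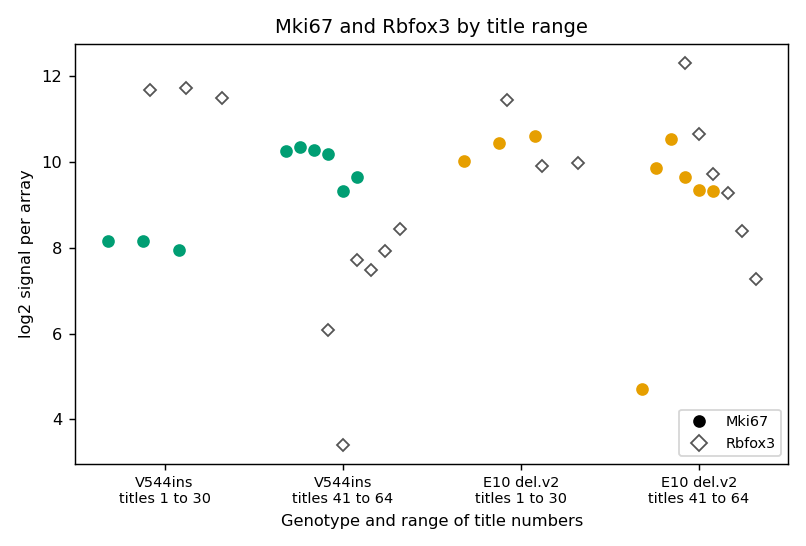
Filled points are the log2 signal of Mki67 and open diamonds that of Rbfox3 on each V544ins and E10 del.v2 array, split by the range of the title numbers. In V544ins the lower range has Mki67 near 8 and Rbfox3 above 11, and the upper range has Mki67 above 9 and Rbfox3 at 8.44 or less; in E10 del.v2 the ranges overlap.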

How the data were processed

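Biotin-labelled total RNA was measured on Affymetrix 3' IVT arrays. The deposited values are log2 signals per probe set, made by the authors with RMA per the submitters' processing notes; its version is not given in the sources used here. RMA corrects background, normalises by quantiles and summarises probes, so levels are relative and small signals are compressed. Of 45141 probe sets, 28898 had 1 gene symbol, 551 several and 15692 none in the platform annotation. Genes above the table median of 4.79 on at least 3 arrays were tested, 11809 in all, with 38 of the 39 measured members. Array medians were 4.66 to 4.85, and the number of arrays limits the precision.

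Genotypes were fitted together over the 45 arrays (lmFit and eBayes of limma 3.58.1, R 4.3.3) and contrasts tested, with Benjamini-Hochberg adjustment over all genes tested; errors of differences and slopes are SE, of levels SD. The procedure was tested on simulated data. The slope fit added Rbfox3 to the genotypes. Members, lists, comparisons and named genes were chosen with earlier results of these data known. Named in each comparison were the members called (the 12 with the smallest p), or the 5 with the smallest p where fewer than 5 were called, and up to 4 other cell cycle genes that were called; Mki67, Top2a, Cdk1, Mcm2, Mcm6, Pcna, Ccne1, E2f1 and Rbfox3 were described in any case, and Bub1 and the 5 other genes without a call on Rbfox3 were named after their values were seen. Of 25 members with several probe sets, 12 of 34 further probe sets had an r under 0.8 with the set used, all 12 with a mean under the table median. Alternatives were leaving off the filter or raising it to 9 arrays, averaging the probe sets of a gene, centring, quantile normalisation, a trended robust prior, array weights, the title range as a block or alone, neuron covariates and leaving out each array.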

Additional observations from a re-analysis of the deposited data

Results flagged for a closer look

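Dixon's gap test was run on 72 sets of values in groups of 4 to 10 arrays, and 13 (18.1%) passed its 95% critical value, where chance gives about 1 in 20. The sets share arrays and genes that move together, and 9 of the 13 come from E10 del.v2 replicate 2. That array had a mitotic mean of 3.93 (other 8 arrays 7.17 to 8.42), a G1/S mean of 5.12 (7.07 to 8.23) and a mitotic minus G1/S difference of -1.19 (-0.00090 to 0.40). Its Mki67 was 4.72 (9.32 to 10.61), Top2a 4.62 (9.14 to 10.67), Cdk1 4.36 (8.77 to 10.24), Mcm2 4.70 (6.93 to 8.46), Mcm6 5.66 (8.23 to 9.79) and Pcna 9.93 (11.10 to 12.05). Rbfox3 was 12.31 and the Actb 3' minus 5' signal 1.19 on it, the highest of all arrays for both, and their part in these values was not tested.

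EGFRvIII replicate 7 had a mitotic mean of 5.47 (other 7 arrays 7.37 to 8.31) and Top2a at 6.86 (9.28 to 10.04). D842V replicate 5 had Rbfox3 at 4.34 (other 4 arrays 9.86 to 11.20) and Ccne1 at 6.81 (5.96 to 6.18).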

How the results depend on the processing

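No paired analysis was possible because replicate numbers were given in order of deposition and the labels pair no arrays. With the arrays weighted by their fit (weights from 0.175 to 9.94), the members called were 13 for D842V, 1 for C450 ins, 1 for V544ins, 36 for E10 del, 27 for E10 del.v2, 16 for E7 del, 38 for the difference among mutants, 4 for the title ranges and 35 for the range effect in V544ins minus that in E10 del.v2. The other settings for these 9 comparisons, those that leave out 1 array aside, called 0 members except as follows. Without EGFRvIII replicate 7 and E10 del.v2 replicate 2 together, 26 were called for E10 del and 1 for the title ranges, and 1 for the title ranges without E10 del replicates 1 to 3 and E10 del.v2 replicate 2. Leaving out each array in turn gave 0 to 27 members called for E10 del, 36 to 38 for the slope on Rbfox3 and 0 to 0 for the other comparisons. The slope count was 0 within titles 41 to 64, 4 without EGFRvIII replicate 7 there, and 0 in the EGFRvIII arrays with or without that replicate. For the mutants against EGFRvIII 0 members were called under all 15 other settings. The counts under these settings, array weights included, are given without direction and without the share of all genes called. They therefore cannot set the members apart from other genes. Mitotic minus G1/S in D842V was 0.43 by the median of the members and 0.37 with only the members kept by the filter, against 0.17. Values of the other groups under these settings are not given. On leaving out 1 array, the difference ran from 0.14 to 0.21 in D842V, -0.02 to 0.19 in EGFRvIII and -0.10 to 0.18 in E7 del. It ran from -0.10 to 0.09 in C450 ins, -0.33 to -0.05 in E10 del, -0.04 to 0.16 in E10 del.v2 and -0.05 to 0.06 in V544ins. None of the differences that turned sign below had passed a test. For 6 PDGFRA mutants against EGFRvIII, the sign turned without EGFRvIII 4, 5 and 6 together (E2f1 0.12, Cdt1 0.058). For V544ins against the other 5 mutants, the sign turned with neuron markers other than Rbfox3 as a covariate (Uhrf1 -0.0059, Mcm7 -0.040, Rrm2 -0.057, Birc5 -0.11), with only titles 1 to 30 (Mcm5 -0.88, Uhrf1 -0.96, Mcm7 -0.81, Rrm2 -1.19, Birc5 -1.28), without E10 del 1, 2 and 3 and E10 del.v2 2 together (Mcm5 -0.071, Uhrf1 -0.17, Mcm7 -0.16, Rrm2 -0.28, Birc5 -0.26), with Actb 3' minus 5' signal as a covariate (Mcm5 -0.10, Uhrf1 -0.15, Mcm7 -0.16, Rrm2 -0.23, Birc5 -0.31), without V544ins replicate 4 (Birc5 -0.00024). For E10 del.v2 against the other 5 mutants, the sign turned with array weights (E2f1 -0.052, Kif11 0.22, Foxm1 0.15), with title number range as a block (E2f1 -0.0076), with Rbfox3 as a covariate (Kif11 0.10, Foxm1 0.069), with neuron markers other than Rbfox3 as a covariate (Kif11 0.11, Foxm1 0.063), with only titles 41 to 64 (Ccnb2 -0.73, Ccne1 0.0039, E2f1 -0.10), with only titles 1 to 30 (Kif11 0.53, Foxm1 0.47), with Actb 3' minus 5' signal as a covariate (Kif11 0.15, Foxm1 0.055), without EGFRvIII 7 and E10 del.v2 2 together (Kif11 0.069), without E10 del.v2 replicate 2 (Kif11 0.069). For E7 del against the other 5 mutants, the sign turned with Rbfox3 as a covariate (Foxm1 -0.0019, Aurkb -0.016, Rrm1 -0.17), with neuron markers other than Rbfox3 as a covariate (Foxm1 -0.040, Aurkb -0.13, Rrm1 -0.27). For title numbers 41 to 64 against 1 to 30, the sign turned with Rbfox3 as a covariate (E2f2 -0.082, Foxm1 -0.052). The cause of these changes was not tested. The spread within genotypes and the 1 to 9 arrays per group limit what these data can show.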
